A study of Mus musculus with 9 samples.

Results

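The genes described are the matrix metalloproteases (Mmp), the disintegrin-like proteases with thrombospondin repeats (Adamts) and the tissue inhibitors of metalloproteases (Timp), 44 genes listed by symbol and matched to the identifiers of a count table of 38560 genes. They comprise 21 Mmp, 19 Adamts and 4 Timp genes. RNA was sequenced from 3 cell populations sorted from mouse fetal testes at 12.5 days post coitum, named Leydig, Interstitial and Sertoli, with 3 libraries each, 9 in all. All embryos carried the Sf1-eGFP transgene, a green reporter under regulatory sequence of the gene for steroidogenic factor SF1, so no population is without it. The libraries pool about 10 sorts with several litters in each, and cells stained for CD31, a surface protein of germ and endothelial cells, had been removed. Per the labels, samples A and B and their mix were made per population, and replicate C is taken here as the mix, by elimination, so that it is not independent of A and B. No source used here gives the fluorescence gates.

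Mmp and Adamts enzymes are zinc-dependent proteases that cut proteins of the extracellular matrix. Most are made as inactive precursors, and Adamts, membrane-type and a few other Mmp precursors carry a site for furin-like convertases. Secreted Mmp enzymes act at a distance, whereas the membrane-type Mmp enzymes act at the cell surface. Adamts enzymes fall into groups by substrate: those that cut the proteoglycans aggrecan and versican, those that trim the amino-terminal propeptide of procollagen, and those that act on fibrillin, cartilage oligomeric matrix protein or von Willebrand factor. Timp proteins occupy the active site and block it, and Timp3 is the one that binds the matrix and also inhibits several Adamts enzymes. In the fetal testis, matrix is laid down around the cords while cells and vessels move between them.

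Reads in genes numbered 33123254 to 39244060 per library, so a count of 0 allows up to 3 reads, or 0.0764 to 0.0906 CPM (counts per 1e6 reads in genes). The members together took 0.205 to 0.214% of them in Leydig, 0.145 to 0.158% in Interstitial and 0.244 to 0.268% in Sertoli. The labels were set against marker lists, each given as the summed level over its genes. The 16 Sertoli markers summed to 1683 to 1762 CPM in Leydig, 492 to 532 in Interstitial and 4743 to 5005 in Sertoli. Fetal Leydig markers summed to 433 to 716 CPM in Leydig, 232 to 292 in Interstitial and 375 to 439.5 in Sertoli. Of the 13 tested, 4 were called higher and 0 lower in Leydig than in Sertoli. Cyp11a1, Cyp17a1, Hsd3b1, Lhcgr and Insl3 were not called in that comparison. Against Interstitial, 10 were called higher in Leydig and 1 lower, and 2 were higher and 8 lower in Interstitial than in Sertoli. Interstitial progenitor markers summed to 2062 to 2205 CPM in Leydig, 1483 to 1514 in Interstitial and 741 to 892 in Sertoli. Endothelial markers summed to 304 to 346 CPM in Leydig, 299 to 353 in Interstitial and 61.9 to 65.2 in Sertoli. Germ cell markers summed to 95.6 to 289.6 CPM in Leydig, 958 to 1089 in Interstitial and 88.0 to 126 in Sertoli, mesothelial markers to 386 to 401 CPM in Leydig, 392 to 429.9 in Interstitial and 428 to 453 in Sertoli, and smooth muscle and pericyte markers to 454 to 518 CPM in Leydig, 394 to 434 in Interstitial and 293 to 327 in Sertoli. In the mesothelial sum, Wt1, which is also on the Sertoli list, averaged 241.9 CPM in Leydig, 183.3 in Interstitial and 365.1 in Sertoli (means of A and B). Of the 8 mesothelial genes tested, 5 were called higher and 2 lower in Leydig than in Sertoli, 1 higher and 6 lower in Leydig than in Interstitial, and 6 higher and 2 lower in Interstitial than in Sertoli. Upk3b, a mesothelial marker, averaged 64.8 CPM in Leydig, 91.2 in Interstitial and 3.86 in Sertoli. Erythroid markers reached 164 to 588 CPM in Leydig, 14074 to 14801 in Interstitial and 166 to 472 in Sertoli. No population was therefore free of the others' markers. In such bulk samples, fewer cells of a type and less RNA per cell cannot be told apart.

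RefSeq (GRCm38.p6) gave an entry for 30 of the 44 members, 33 entries in all, and the 250 bases before each start were searched on both strands. Sequences are shown for a selection of these genes. Adamts16, Adamts8, Mmp2, Mmp9, Adamts5 and Adamts7 are among the members without an entry, so their promoters were not searched. Bases that GENCODE M21 places in an exon of the gene were left out of what is printed. Of the 33 starts, 30 lay within 1000 bases of the start GENCODE gives the gene, while those of Adamts20, Mmp11 and 1 of the 2 of Mmp12 lay 61.1, 3.99 and 2.99 kb inside it. Capitals mark a match to any of the 6 motifs searched: the SF1 motif AAGGTCA, the GATA motif AGATAA, the SOX motif AACAAT, the AP-1 motif TGANTCA, the GC box GGGCGG and the TATA motif TATAAA. The matches printed do not overlap each other. The first 4 are members that stood out in 1 population: Adamts9 and Mmp15 high in Sertoli, Timp1 low in Interstitial and Mmp28 high in Leydig.
Adamts9, chr6:92943535-92943784, minus strand: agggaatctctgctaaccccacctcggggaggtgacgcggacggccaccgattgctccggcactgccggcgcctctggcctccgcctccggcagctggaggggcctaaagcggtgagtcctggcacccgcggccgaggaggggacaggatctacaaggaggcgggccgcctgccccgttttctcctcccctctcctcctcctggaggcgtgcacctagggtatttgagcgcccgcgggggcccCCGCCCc
Mmp15, chr8:95352046-95352267, plus strand: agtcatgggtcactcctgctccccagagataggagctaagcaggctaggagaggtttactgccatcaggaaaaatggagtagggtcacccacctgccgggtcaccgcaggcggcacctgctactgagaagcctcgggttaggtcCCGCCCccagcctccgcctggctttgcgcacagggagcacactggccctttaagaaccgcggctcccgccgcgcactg
Timp1, chrX:20869916-20870165, plus strand: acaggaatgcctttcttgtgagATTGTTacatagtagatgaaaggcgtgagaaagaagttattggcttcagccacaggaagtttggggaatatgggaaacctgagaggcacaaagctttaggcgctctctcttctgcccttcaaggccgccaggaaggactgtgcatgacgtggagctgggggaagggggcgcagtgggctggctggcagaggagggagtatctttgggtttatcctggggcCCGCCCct
Mmp28, chr11:83463072-83463290, minus strand: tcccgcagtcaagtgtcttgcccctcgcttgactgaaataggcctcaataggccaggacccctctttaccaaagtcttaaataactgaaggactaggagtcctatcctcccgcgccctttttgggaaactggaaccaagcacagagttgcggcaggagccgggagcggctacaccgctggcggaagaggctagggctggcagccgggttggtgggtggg
Adamts9, Mmp15 and Timp1 each held 1 GC box, and Timp1 also held 1 SOX motif. The GC box of Mmp28 lay in the exon bases that are not printed.

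The next 3 are the last 100 bases before the starts of Mmp3, Mmp10 and Mmp13, neighbours on chromosome 9 that were nearly without reads in all populations.
Mmp3, chr9:7445722-7445821, plus strand: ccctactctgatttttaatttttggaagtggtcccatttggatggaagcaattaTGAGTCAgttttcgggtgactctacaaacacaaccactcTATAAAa
Mmp10, chr9:7502242-7502341, plus strand: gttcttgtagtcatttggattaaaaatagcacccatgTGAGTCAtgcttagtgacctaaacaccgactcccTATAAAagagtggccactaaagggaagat
Mmp13, chr9:7272414-7272513, plus strand: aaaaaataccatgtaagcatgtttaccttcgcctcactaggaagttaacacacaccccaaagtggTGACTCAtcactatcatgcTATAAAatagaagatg
Each held 1 AP-1 motif and 1 TATA motif. AP-1 motifs stood in 5 of 9 promoters of members too low to be tested (Mmp3, Mmp7, Mmp10, Mmp13 and Mmp20). They stood in 1 of 21 promoters of tested members, Mmp12, against 6.75% of all 32851 promoter entries. All 6 lie among the 8 Mmp members that stand together on chromosome 9, so they cannot be taken as separate cases. The GC box stood in 1 of 9 and 15 of 21, against 32.7% of all entries. The TATA motif stood in 6 of 9 and 1 of 21, against 12.4%, and of the 6 all but Mmp21 lie in that cluster. The GATA motif stood in 3 of 9 and 0 of 21 (9.99% of all entries), the SOX motif in 1 of 9 and 2 of 21 (9.42%), and the SF1 motif in none of the 30 (4.08%). A match is a description of these letters and not evidence of a bound factor.

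Of the 44 members, 35 had enough reads to be tested (13 of 21 Mmp, 19 of 19 Adamts and 3 of 4 Timp genes). One edgeR fit over 18048 genes compared the populations from their A and B libraries, and a gene was called at an adjusted p of 0.05. Of the 35 tested, 32 were called in at least 1 of the 3 comparisons, as were 70.3% of all genes tested. Adamts13, which encodes the protease of von Willebrand factor, Mmp12, the macrophage elastase gene, and Mmp17, which encodes a membrane-type Mmp, were called in none. Adamts13 was at 4.93, 6.43 and 5.27 CPM in Leydig, 5.89, 5.50 and 5.50 in Interstitial and 4.49, 4.75 and 4.01 in Sertoli (replicates A, B and C). All its Leydig and Interstitial libraries lay above its Sertoli libraries. From the first 2 lanes alone it was called higher than in Sertoli in Leydig (log2 difference 0.56, edgeR adjusted p 0.0327) and Interstitial (0.45, 0.0463). A fit of all 9 libraries, with mixes not independent, also called both. By mean level, Leydig stood between the other populations for 21 of 35 tested members (60%), against 57.9% of all genes tested. Sertoli was lowest for 21 of 35 (60%), against 44% of all genes. Leydig was lowest for 1 of 35, Adamts15 (2.86%), against 19.4% of all genes. These shares are descriptions, and a member had to be expressed somewhere to be tested.

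**Figure D1:**
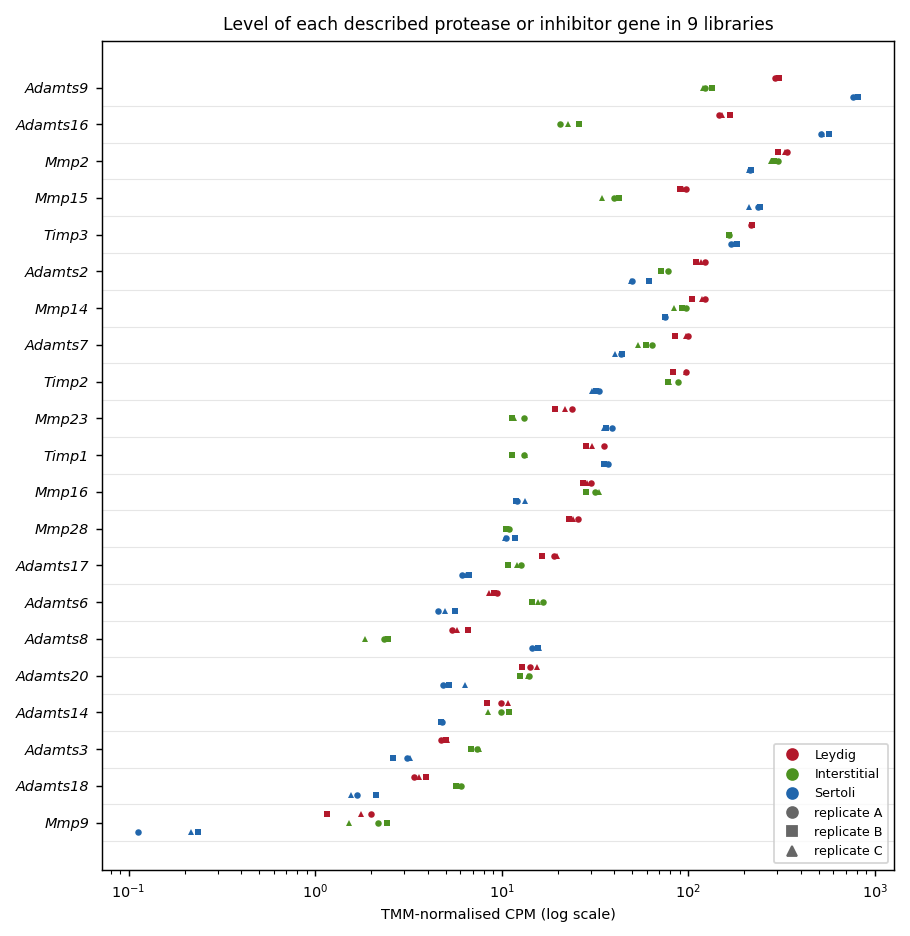
TMM-normalised CPM on a log scale (horizontal) of the 21 members described in full that were tested, in each of 9 libraries; colour marks the population and shape the replicate. Adamts9, Adamts16, Mmp15 and Adamts8 lie highest in Sertoli and lowest in Interstitial, and Mmp28 lies highest in Leydig.

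Among members with at least 5 CPM, the largest differences were in genes highest in Sertoli. Sertoli exceeded both other populations at least 2-fold, with a call against each, for 4 of 35 tested members: Adamts16, Adamts9, Adamts8 and Mmp15. The same rule took 5.71% of all genes tested. In all 4, Leydig lay between the others and the 9 libraries separated by population. Adamts16 encodes a secreted protease whose loss in rats leaves males with undescended testes (ENSMUSG00000049538, chromosome 13, 70727802 to 70841811, GRCm38, as for all gene coordinates here). It was at 147, 167 and 152 CPM in Leydig, 20.4, 25.9 and 22.6 in Interstitial and 515, 571 and 523 in Sertoli, in the order of replicates A, B and C used throughout. Its log2 difference was -1.83 ± 0.11 for Leydig against Sertoli (SE; edgeR adjusted p 6.26e-06), 2.78 ± 0.12 for Leydig against Interstitial (1.5e-06) and -4.61 ± 0.13 for Interstitial against Sertoli (2.4e-08). Interstitial thus held 4.26% of the Sertoli level.

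Adamts9 encodes a versican-cutting protease, the mammalian relative of the worm enzyme GON-1, which is needed for gonad shape in that animal (ENSMUSG00000030022, chromosome 6, 92772699 to 92943492). It reached the highest CPM of any member in any library, with 292, 306 and 296 CPM in Leydig, 123, 133 and 120.3 in Interstitial and 764, 816 and 784 in Sertoli. All 3 comparisons were called, at -1.44 ± 0.07 for Leydig against Sertoli, 1.24 ± 0.07 for Leydig against Interstitial and -2.68 ± 0.07 for Interstitial against Sertoli (log2 ± SE; edgeR adjusted p 2.21e-06, 5.7e-06 and 2.09e-08). Mmp15 encodes a membrane-type Mmp (ENSMUSG00000031790, chromosome 8, 95352268 to 95375080). Its levels were 96.6, 90.0 and 93.8 CPM in Leydig, 40.1, 42.3 and 34.4 in Interstitial and 237, 242 and 213 in Sertoli, again without overlap. The differences were -1.40 ± 0.06, 1.19 ± 0.06 and -2.60 ± 0.07 in the same order (edgeR adjusted p 1.76e-06, 4.65e-06 and 1.55e-08). Adamts8, a relative of Adamts1 reported to restrain vessel growth (ENSMUSG00000031994, chromosome 9, 30942562 to 30963838), was lower in all, with 5.38, 6.60 and 5.76 CPM in Leydig, 2.33, 2.47 and 1.84 in Interstitial and 14.6, 15.6 and 15.8 in Sertoli. It differed by -1.38 ± 0.14, 1.34 ± 0.16 and -2.71 ± 0.15 (edgeR adjusted p 8.56e-05, 0.000271 and 1.08e-06).

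Interstitial was at least 2-fold lower than both others, with a call against each, for 6 of 35 tested members (4.93% of all genes): these 4, Mmp19 and Timp1. The Sertoli markers moved with these genes. As means of replicates A and B, their sum in Leydig was 34.7% of the Sertoli level and in Interstitial 10.4%. That sum includes Gata4 and Wt1, which fell less than it. Gata4 averaged 274.7 CPM in Leydig, 120.6 in Interstitial and 471.1 in Sertoli. Gene by gene, the median log2 difference of the 16 markers was -1.8 for Leydig against Sertoli and -4.32 for Interstitial against Sertoli. Leydig against Interstitial had 15 called higher and 1, Dmrt1, called lower. The Leydig levels of Adamts16, Adamts9, Mmp15 and Adamts8 were 28.9, 37.8, 38.9 and 39.6% of their Sertoli levels. The Interstitial levels were 4.26, 16.2, 17.2 and 15.9%. The part of Sertoli cell content in these values was not tested. Exons of A730049H05Rik, on the other strand, overlap those of Adamts9, and it was at 2.08 to 2.86 CPM in Leydig, 0.47 to 0.746 in Interstitial and 5.47 to 6.48 in Sertoli.

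**Figure D2:**
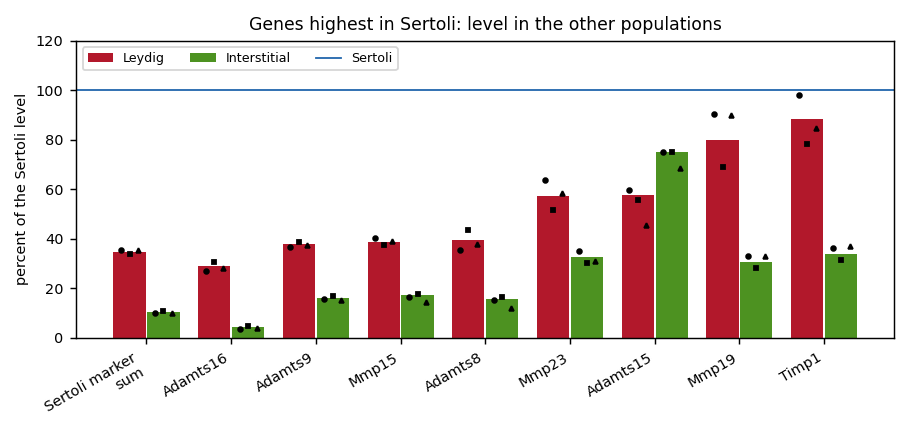
Level in Leydig and Interstitial as percent of the mean Sertoli level (vertical) for the summed Sertoli markers and 8 members that were highest in Sertoli. Bars are means of replicates A and B, and points the libraries (circle A, square B, triangle C). The line is the mean Sertoli level of replicates A and B. The marker sum includes Gata4 and Wt1, which fell less than the sum. In Leydig, Adamts16, Adamts9, Mmp15 and Adamts8 lie between 28.9 and 39.6%, beside 34.7% for the marker sum, while Mmp19 and Timp1 lie at 79.8 and 88.3%.

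Further members were highest in Sertoli by smaller margins. Mmp23 encodes a short membrane-anchored Mmp without the usual carboxy-terminal domain. It was at 23.9, 19.3 and 21.9 CPM in Leydig, 13.2, 11.4 and 11.7 in Interstitial and 39.0, 36.0 and 35.5 in Sertoli, and the 9 libraries separated by population. It differed by -0.84 ± 0.12 in Leydig against Sertoli, 0.82 ± 0.12 in Leydig against Interstitial and -1.66 ± 0.12 in Interstitial against Sertoli (log2 ± SE; edgeR adjusted p 0.000632, 0.000971 and 6.24e-06). Adamts15, a proteoglycan-cutting protease gene that lies head to head with Adamts8 at a distance of 20.1 kb, did not share its order. Its levels were 6.44, 6.02 and 4.92 CPM in Leydig, 8.12, 8.09 and 7.41 in Interstitial and 9.91, 11.7 and 9.72 in Sertoli, lowest in Leydig, with -0.83 ± 0.13 (edgeR adjusted p 0.00114), -0.36 ± 0.13 (0.0512, not called) and -0.47 ± 0.13 (0.0114). The last of these was lost without Interstitial replicate A (-0.42, edgeR adjusted p 0.0825), without Interstitial replicate B (-0.41, edgeR adjusted p 0.0852) and without Sertoli replicate B (-0.35, edgeR adjusted p 0.0927).

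Mmp19, a secreted Mmp gene, stood at 2.05, 1.56 and 2.03 CPM in Leydig, 0.742, 0.640 and 0.746 in Interstitial and 2.02, 2.49 and 1.53 in Sertoli. Interstitial was below both others, with 1.38 ± 0.27 for Leydig against Interstitial (edgeR adjusted p 0.00366) and -1.75 ± 0.27 for Interstitial against Sertoli (edgeR adjusted p 0.000483), while Leydig and Sertoli libraries overlapped (-0.37 ± 0.24, 0.276). In the first 2 lanes alone, Leydig against Interstitial was 0.93, edgeR adjusted p 0.0587, and Leydig against Sertoli was called (-0.85, edgeR adjusted p 0.0475). Exons of Tmem198b on the other strand overlap those of Mmp19, at 13.6 to 17.7 CPM in Leydig, 12 to 14.6 in Interstitial and 17.6 to 18.8 in Sertoli. Mmp11, a stromelysin gene with 58.5, 51.4 and 55.8 CPM in Leydig, 52.6, 43.0 and 45.9 in Interstitial and 70.2, 57.6 and 59.8 in Sertoli, was called in Interstitial against Sertoli (-0.47 ± 0.12, edgeR adjusted p 0.00946). Its exons overlap those of Chchd10 on the other strand, which was at 44.5 to 47.8 CPM in Leydig, 29.3 to 37.2 in Interstitial and 126 to 141 in Sertoli. Without Sertoli replicate A the Mmp11 value was -0.33, edgeR adjusted p 0.0877, and without Interstitial replicate B it was -0.28, edgeR adjusted p 0.122. When A and B were fitted as blocks, Mmp11 was called in the other comparisons too, at -0.26 in Leydig against Sertoli and 0.22 in Leydig against Interstitial (edgeR adjusted p 0.0066 and 0.0127). 

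A pair with smaller differences was Adamts10, a fibrillin-associated protease gene, and Adamts19, a gene linked to heart valve disease in humans. Adamts10 was at 151, 129.9 and 143 CPM in Leydig, 124, 119 and 115 in Interstitial and 136, 135 and 131 in Sertoli, and Adamts19 at 16.3, 15.4 and 15.6 CPM in Leydig, 14.6, 14.5 and 14.9 in Interstitial and 17.1, 17.6 and 16.4 in Sertoli. Interstitial against Sertoli gave -0.21 ± 0.08 for Adamts10 (edgeR adjusted p 0.0366) and -0.31 ± 0.09 for Adamts19 (0.0151), and Leydig against Interstitial 0.22 ± 0.08 for Adamts10 (0.0419). All 3 calls depended on the processing. Scaled by library size alone, Interstitial against Sertoli was -0.05, edgeR adjusted p 0.623, for Adamts10 and -0.14, edgeR adjusted p 0.193, for Adamts19. In the last 2 lanes alone, Adamts19 was at -0.02, edgeR adjusted p 0.901. For Adamts19 the call was lost without Interstitial replicates A or B and without Sertoli replicate B, at -0.26, -0.24 and -0.29. For Adamts10 it was lost without any 1 of the 4 libraries, at -0.19 and -0.12 without Interstitial replicates A and B and -0.21 and -0.23 without Sertoli replicates A and B. Among the fits that left out 1 library, Leydig against Interstitial was called for Adamts10 only without Leydig replicate B. It was not called, and gave 0.11 without Leydig replicate A, 0.24 and 0.18 without Interstitial replicates A and B, and 0.23 without either Sertoli replicate.

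Only 1 of 35 tested members, Mmp28, was called and at least 2-fold higher in Leydig than in both other populations, a rule that took 0.31% of all genes tested. Mmp28 encodes epilysin, a secreted Mmp with a furin site (ENSMUSG00000020682, chromosome 11, 83440768 to 83463071). It was at 25.5, 22.9 and 24.0 CPM in Leydig, 10.9, 10.6 and 10.9 in Interstitial and 10.6, 11.8 and 10.4 in Sertoli, so that each Leydig library exceeded all 6 others, and Interstitial and Sertoli overlapped. Leydig differed by 1.07 ± 0.10 from Sertoli and by 1.18 ± 0.10 from Interstitial (log2 ± SE; edgeR adjusted p 7e-05 and 6.34e-05), and Interstitial from Sertoli by -0.11 ± 0.11 (0.378). The gene on the other strand whose exons overlap it, 1700020L24Rik, was at most 0.233 CPM in any library. Just short of 2-fold against both was Adamts5, an aggrecan- and versican-cutting protease gene, with 34.3, 29.4 and 35.3 CPM in Leydig, 16.6, 15.8 and 16.0 in Interstitial and 15.7, 15.4 and 15.7 in Sertoli. Its differences were 0.99 ± 0.10 and 0.99 ± 0.10 (edgeR adjusted p 8.2e-05 and 0.00012), with 0.00 ± 0.10 between Interstitial and Sertoli (0.986). Its neighbour Adamts1, 53.1 kb away on the same strand of chromosome 16 and also a proteoglycan-cutting enzyme, had another order, at 101, 111 and 99.2 CPM in Leydig, 118, 131 and 121 in Interstitial and 64.6, 95.4 and 72.5 in Sertoli. Adamts1 was called for Interstitial against Sertoli (0.58 ± 0.15, edgeR adjusted p 0.00995), at 0.32 without Sertoli replicate A and at 0.88 without Sertoli replicate B, both called. For Leydig against Sertoli it was not called (0.36 ± 0.15, 0.0979), although without Sertoli replicate B it was (0.67, edgeR adjusted p 0.0034).

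Sertoli had the lowest mean level for most tested members, 21 of 35. Among these, Mmp8, Mmp9, Mmp16, Mmp25, Adamts20 and Timp2, 6 of 35, were called and at least 2-fold lower in Sertoli than in both others (5.71% of all genes). The genes of the 3 procollagen-trimming enzymes were also lowest there. Adamts2, the main procollagen I amino-propeptidase gene, was at 124, 111 and 118 CPM in Leydig, 78.0, 71.5 and 71.7 in Interstitial and 49.6, 61.8 and 49.1 in Sertoli. It differed by 1.03 ± 0.11 in Leydig against Sertoli, 0.66 ± 0.11 in Leydig against Interstitial and 0.37 ± 0.11 in Interstitial against Sertoli (log2 ± SE; edgeR adjusted p 0.000102, 0.0013 and 0.015). The last call was lost without Sertoli replicate A, at 0.22, and without Interstitial replicate A, at 0.36. Each of these fits leaves a single library in that population. Adamts14, another enzyme of this kind, was at 9.93, 8.36 and 10.8 CPM in Leydig, 9.90, 10.9 and 8.41 in Interstitial and 4.80, 4.75 and 4.79 in Sertoli, with Leydig and Interstitial overlapping. It differed by 0.89 ± 0.14 in Leydig and 1.07 ± 0.14 in Interstitial against Sertoli (edgeR adjusted p 0.00113 and 0.000193). Adamts3, which besides procollagen also processes the lymphatic growth factor VEGF-C, was highest in Interstitial, at 4.75, 5.01 and 5.06 CPM in Leydig, 7.35, 6.87 and 7.59 in Interstitial and 3.11, 2.61 and 3.23 in Sertoli. All 3 comparisons of Adamts3 were called, with 0.73 ± 0.16, -0.53 ± 0.15 and 1.25 ± 0.16 (edgeR adjusted p 0.00806, 0.0224 and 0.000176). Without Sertoli replicate B the first was 0.60, edgeR adjusted p 0.0607. The second was lost without Leydig replicate A (-0.49, edgeR adjusted p 0.0825), without Interstitial replicate A (-0.49, edgeR adjusted p 0.0992) and without Interstitial replicate B (-0.59, edgeR adjusted p 0.0564).

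Adamts7 and Adamts12, known to cut cartilage oligomeric matrix protein, were both at least 1.75-fold higher in Leydig than in Sertoli. Adamts7 was at 100.0, 84.6 and 97.6 CPM in Leydig, 64.0, 59.4 and 53.7 in Interstitial and 43.6, 44.3 and 40.3 in Sertoli, and all its comparisons were called (1.03 ± 0.09, 0.60 ± 0.09 and 0.43 ± 0.09; edgeR adjusted p 3.33e-05, 0.000804 and 0.00242). Its exons overlap those of Tbc1d2b on the other strand, at 67.4 to 76.4 CPM in Leydig, 49.9 to 52.5 in Interstitial and 48 to 54.2 in Sertoli. Adamts12 was at 32.4, 30.2 and 32.4 CPM in Leydig, 34.9, 31.9 and 34.3 in Interstitial and 17.6, 17.2 and 16.2 in Sertoli, with 0.80 ± 0.09 in Leydig against Sertoli, -0.08 ± 0.08 against Interstitial and 0.88 ± 0.09 in Interstitial against Sertoli (edgeR adjusted p 0.000122, 0.471 and 3.22e-05). Leydig and Interstitial libraries of Adamts12 overlapped, whereas those of Adamts7 did not. Adamts17, a gene of short stature and eye disease in humans, was stepped across the populations at 19.1, 16.4 and 19.8 CPM in Leydig, 12.7, 10.8 and 12 in Interstitial and 6.15, 6.69 and 6.41 in Sertoli. It differed by 1.43 ± 0.13, 0.61 ± 0.13 and 0.81 ± 0.13 (edgeR adjusted p 5.34e-05, 0.00445 and 0.000734), and the second was 0.49, edgeR adjusted p 0.0503, without Interstitial replicate B. Adamts20, whose mutation gives mice a white belt, was at 14.2, 12.9 and 15.5 CPM in Leydig, 14.0, 12.5 and 13.9 in Interstitial and 4.85, 5.22 and 6.33 in Sertoli. It was called against Sertoli in both other populations (Leydig 1.38 ± 0.12, Interstitial 1.34 ± 0.12; edgeR adjusted p 4.14e-05 and 2.24e-05), and Leydig and Interstitial overlapped.

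Adamts6 and Adamts18 were highest in Interstitial. Adamts6, a relative of Adamts10, was at 9.45, 9.08 and 8.52 CPM in Leydig, 16.6, 14.5 and 15.7 in Interstitial and 4.55, 5.63 and 4.98 in Sertoli. Leydig was above Sertoli by 0.82 ± 0.14 and below Interstitial (-0.73 ± 0.13), and Interstitial was above Sertoli by 1.55 ± 0.14 (edgeR adjusted p 0.00196, 0.00246 and 2.01e-05). Adamts18, the closest relative of Adamts16, had an opposite order to that gene, at 3.37, 3.92 and 3.62 CPM in Leydig, 6.01, 5.67 and 5.92 in Interstitial and 1.68, 2.11 and 1.56 in Sertoli. Its differences were 0.90 ± 0.19, -0.67 ± 0.18 and 1.57 ± 0.19 (edgeR adjusted p 0.00613, 0.0144 and 0.000114). The first was lost without Sertoli replicate A (0.75, edgeR adjusted p 0.054), and the second without Leydig replicate A (-0.56, edgeR adjusted p 0.0726) and without Interstitial replicate A (-0.63, edgeR adjusted p 0.0658). Adamts4, an aggrecan-cutting protease gene, was lower in Sertoli, at 4.57, 3.75 and 4.03 CPM in Leydig, 4.26, 4.19 and 4.08 in Interstitial and 2.72, 1.91 and 2.42 in Sertoli. It was called for Leydig (0.80 ± 0.22, edgeR adjusted p 0.0184) and Interstitial (0.81 ± 0.21, 0.00995) against Sertoli, but not without Sertoli replicate B (0.57, edgeR adjusted p 0.121, and 0.57, edgeR adjusted p 0.0772), nor, for Leydig, without Leydig replicate A (0.65, edgeR adjusted p 0.0762). Mesonephric markers summed to 60.1 to 85.0 CPM in Leydig, 223 to 264 in Interstitial and 40.1 to 46.0 in Sertoli, and their part in the Interstitial-high genes was not tested.

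Among Mmp genes, the gelatinase Mmp2 and its surface activator Mmp14 were abundant in all populations. Mmp2 (ENSMUSG00000031740, chromosome 8, 92827291 to 92853420) was at 339, 303 and 330.2 CPM in Leydig, 302, 287 and 277 in Interstitial and 213, 218 and 211 in Sertoli. It was higher than in Sertoli both in Leydig (0.53 ± 0.07) and among Interstitial libraries (0.39 ± 0.07; log2 ± SE; edgeR adjusted p 0.000383 and 0.00111), and Leydig against Interstitial was not called (0.14 ± 0.07, 0.137), though it was in a fit of all 9 libraries (0.17, edgeR adjusted p 0.011), which counts each mix as a further independent library and so gives p-values that are too small. Mmp14 (ENSMUSG00000000957, chromosome 14, 54431612 to 54445364) was at 124, 105 and 119 CPM in Leydig, 97.6, 92.3 and 84.1 in Interstitial and 74.8, 75.4 and 74.7 in Sertoli, in the same order as Mmp2. It differed by 0.56 ± 0.08, 0.28 ± 0.08 and 0.28 ± 0.08 (edgeR adjusted p 0.000763, 0.0222 and 0.016). The last 2 lost their calls in some fits that left out 1 library, which leave a single library in that population. For Leydig against Interstitial, Mmp14 was at 0.16 without Leydig replicate A, and at 0.31 and 0.22 without Interstitial replicates A and B. For Interstitial against Sertoli it was at 0.27 and 0.28 without Sertoli replicates A and B, so the size of the difference hardly moved. Mmp16, which encodes another membrane-type Mmp, differed more, at 30.2, 27.2 and 28.8 CPM in Leydig, 31.5, 28.3 and 33.0 in Interstitial and 12.1, 11.9 and 13.4 in Sertoli. Leydig and Interstitial overlapped, and both exceeded Sertoli, by 1.22 ± 0.10 and 1.27 ± 0.10 (edgeR adjusted p 2.22e-05 and 7.41e-06). Interstitial progenitor markers, whose sum was 260.5% of the Sertoli level in Leydig and 183% in Interstitial, moved with the genes that were lower in Sertoli. Endothelial markers moved with them too, at 510.4% of the Sertoli level in Leydig and 512.6% in Interstitial, with 13 of 14 called higher in each. The part of either list was not tested.

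Mmp9, Mmp8 and Mmp25, genes expressed in neutrophils and other leukocytes, were low, with at most 0.242 CPM in any Sertoli library. Mmp9, gelatinase B, was at 1.99, 1.15 and 1.76 CPM in Leydig, 2.18, 2.42 and 1.52 in Interstitial and 0.112, 0.235 and 0.215 in Sertoli. It was called for Leydig (3.12 ± 0.44, edgeR adjusted p 0.000636) and for Interstitial (3.65 ± 0.42, 9.53e-05) against Sertoli, and Leydig and Interstitial overlapped (-0.54 ± 0.30, 0.185). Mmp8, neutrophil collagenase, was at 0.241, 0.288 and 0.271 CPM in Leydig, 0.569, 1.25 and 0.821 in Interstitial and 0.0281, 0.0293 and 0.0539 in Sertoli, the only member called and at least 2-fold higher in Interstitial than in both others (8.42% of all genes tested). Its libraries held 1 to 43 reads. Summed over replicates A and B, Leydig had 18 reads, Interstitial 66 and Sertoli 2. The CPM ratio was 9.64 for Leydig against Sertoli (exact binomial 95% interval 2.31 to 85.7) and 33.3 for Interstitial against Sertoli (8.85 to 280.3), intervals that cover counting error only. The fitted values depend on the small count added before the log. Its log2 differences were 3.02 ± 0.90, -1.73 ± 0.47 and 4.75 ± 0.71 (edgeR adjusted p 0.028, 0.0166 and 0.000446). Leydig against Sertoli was lost without Leydig replicate B (2.93, edgeR adjusted p 0.0729), without Sertoli replicate A (2.99, edgeR adjusted p 0.132) and also without Sertoli replicate B (3.05, edgeR adjusted p 0.122). Leydig against Interstitial was lost without Leydig replicate A (-1.61, edgeR adjusted p 0.073) and without Interstitial replicate B (-1.10, edgeR adjusted p 0.144).

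Mmp25, which encodes a membrane-type Mmp of leukocytes, was at 0.541, 0.461 and 0.487 CPM in Leydig, 0.594, 0.378 and 0.522 in Interstitial and 0.112, 0.176 and 0.242 in Sertoli. Leydig and Interstitial overlapped (0.04 ± 0.38, edgeR adjusted p 0.951). Mmp25 was called for Leydig (1.74 ± 0.48, edgeR adjusted p 0.0197) and Interstitial (1.70 ± 0.47, 0.0125) against Sertoli. The first was lost without Leydig replicate A (1.62, edgeR adjusted p 0.0824), without Sertoli replicate A (1.45, edgeR adjusted p 0.133) and also without Sertoli replicate B (2.08, edgeR adjusted p 0.0606). The second was lost without Interstitial replicate A (1.37, edgeR adjusted p 0.094) and without Sertoli replicate A (1.40, edgeR adjusted p 0.0918). Macrophage and leukocyte markers, 13 of 13 called higher in both Leydig and Interstitial than in Sertoli, summed to 25.8 to 40.8 CPM in Leydig, 72.7 to 110.4 in Interstitial and 8.84 to 9.69 in Sertoli. Of the 13, 12 were called lower in Leydig than in Interstitial, a comparison in which Mmp9 and Mmp25 were not called. Neutrophil markers, 6 of 7 of them tested, summed to 0.301 to 2.54 CPM in Leydig, 20.8 to 66.6 in Interstitial and 0.108 to 0.225 in Sertoli, and all 6 were called higher in Interstitial than in Leydig and in Sertoli. Among them S100a9 averaged 0.261 CPM in Leydig, 15.0 in Interstitial and 0 in Sertoli. Their part in Mmp8, Mmp9 and Mmp25 was not tested.

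Mmp17 and Mmp12 were low, and the other Mmp genes were nearly without reads. Mmp17 was at 6.02, 5.24 and 5.03 CPM in Leydig, 5.76, 6.34 and 5.37 in Interstitial and 4.83, 5.49 and 4.52 in Sertoli, and Mmp12 at 1.20, 1.61 and 1.27 CPM in Leydig, 0.990, 1.05 and 1.09 in Interstitial and 1.15, 1.32 and 1.13 in Sertoli, and neither was called. The 8 Mmp members on chromosome 9 lie together, from 7272514 to 7699585. Of these, Mmp3, a stromelysin gene, and Mmp7, the matrilysin gene, had 0 reads in all 9 libraries. Mmp10, Mmp13, Mmp20 and Mmp27 had at most 3 reads in any library, which is at the limit that a count of 0 allows. Mmp21 and Mmp24, elsewhere in the genome, had at most 6 and 7 reads. These 8 genes and Timp4 are the 9 members not tested.

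Of the inhibitors, Timp3, Timp2 and Timp1 were abundant, and each had its own order. Timp1 (ENSMUSG00000001131, chromosome X, 20870166 to 20874735), a secreted inhibitor whose gene lies inside Syn1 on the other strand with no shared exon, was at 35.4, 28.3 and 30.5 CPM in Leydig, 13.2, 11.3 and 13.4 in Interstitial and 36.9, 35.2 and 37.1 in Sertoli. Interstitial was lowest. Leydig exceeded it by 1.39 ± 0.12 and Interstitial differed from Sertoli by -1.62 ± 0.12 (log2 ± SE; edgeR adjusted p 7.1e-05 and 7.95e-06). Leydig and Sertoli overlapped (-0.22 ± 0.12, 0.182), although without Leydig replicate A the difference was -0.39 (edgeR adjusted p 0.0244), and the fit of all 9 libraries, with the limit given for Mmp2, gave -0.21 (edgeR adjusted p 0.0407).

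Timp2 (ENSMUSG00000017466, chromosome 11, 118301069 to 118355740), which blocks Mmp2 and also helps Mmp14 to activate its precursor, had the opposite order between Interstitial and Sertoli. It was at 96.7, 82.4 and 96.7 CPM in Leydig, 87.6, 77.8 and 78.9 in Interstitial and 33.1, 31.9 and 30.4 in Sertoli. Leydig exceeded Sertoli by 1.42 ± 0.09 and Interstitial exceeded it by 1.29 ± 0.09 (edgeR adjusted p 8.93e-06 and 5.71e-06), and Leydig and Interstitial overlapped (0.13 ± 0.09, 0.279; 0.18 and 0.0376 with all 9 libraries, under the same limit). Timp2, Mmp2 and Mmp14 were thus all called higher in Leydig than in Sertoli, the first 2.68-fold and the others 1.45-fold and 1.48-fold. Timp3 (ENSMUSG00000020044, chromosome 10, 86300372 to 86349506), the matrix-bound inhibitor, was at 216, 219.5 and 219.8 CPM in Leydig, 166, 164 and 165 in Interstitial and 168, 182 and 175 in Sertoli. Leydig was highest, by 0.27 ± 0.06 over Sertoli and 0.41 ± 0.06 over Interstitial (edgeR adjusted p 0.00692 and 0.000782). Without Sertoli replicate A the first was 0.22, edgeR adjusted p 0.0589. Interstitial against Sertoli was -0.14 ± 0.06 (0.0676), and was called without Sertoli replicate A (-0.20, edgeR adjusted p 0.0452). The exons of Timp3 overlap those of Syn3 on the other strand, at 2.67 to 4.92 CPM. Timp4, inside Syn2, held 3 to 12 reads and was at 0.271, 0.288 and 0.243 CPM in Leydig, 0.124, 0.0873 and 0.0746 in Interstitial and 0.253, 0.293 and 0.323 in Sertoli, too low to be tested. Exons of Timp4 overlap those of Syn2 on the other strand, at 0.481 to 0.649 CPM in Leydig, 0.792 to 1.22 in Interstitial and 0.449 to 0.619 in Sertoli.

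Per kilobase of exon, Timp1 had the highest level of the inhibitors in Leydig and Sertoli, though not in Interstitial. The lengths are of exons merged over all transcripts, 888 bases for Timp1, 8144 for Timp3 and 15048 for Adamts9. A longer merged length lowers the value, and which transcripts were present was not tested. Timp1 averaged 35.4 in Leydig, 14.2 in Interstitial and 41.0 in Sertoli (CPM per kb, means of 3 libraries). Timp2 averaged 23.6 in Leydig, 20.9 in Interstitial and 8.16 in Sertoli, and Timp3 26.8 in Leydig, 20.3 in Interstitial and 21.5 in Sertoli. Among proteases on this scale, Mmp2 had the highest level in Leydig and Interstitial, with 96.1 in Leydig, 85.6 in Interstitial and 63.5 in Sertoli. Adamts16 had the highest in Sertoli, with 22.7 in Leydig, 3.36 in Interstitial and 78.5 in Sertoli. Adamts9, with the highest CPM, fell behind both on this scale in Sertoli, at 19.8 in Leydig, 8.34 in Interstitial and 52.4 in Sertoli. The summed protease level over the summed Timp level, both per kb, was 3.4, 3.58 and 3.51 in Leydig, 4.02, 4.23 and 3.87 in Interstitial and 4.92, 5.19 and 4.78 in Sertoli. The 3 populations did not overlap in this ratio, which counts transcripts and not protein or activity. The families differed in it. Mmp over Timp was 2.01, 2.02 and 2.05 in Leydig, 2.54, 2.6 and 2.4 in Interstitial and 2.37, 2.34 and 2.2 in Sertoli, so that Sertoli lay below Interstitial. Adamts over Timp was 1.39, 1.56 and 1.46 in Leydig, 1.48, 1.63 and 1.47 in Interstitial and 2.55, 2.84 and 2.58 in Sertoli. Leydig and Interstitial overlapped in it. The summed Adamts level was 180.5, 199.6 and 183.5 CPM per kb in Sertoli, of which Adamts16 and Adamts9 averaged 78.5 and 52.4. It was 126.8, 124.9 and 125.9 in Leydig and 85.2, 86.1 and 81.7 in Interstitial. The Adamts sum in Sertoli was thus mostly these 2 genes, and a ratio without them was not computed.

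**Figure D3:**
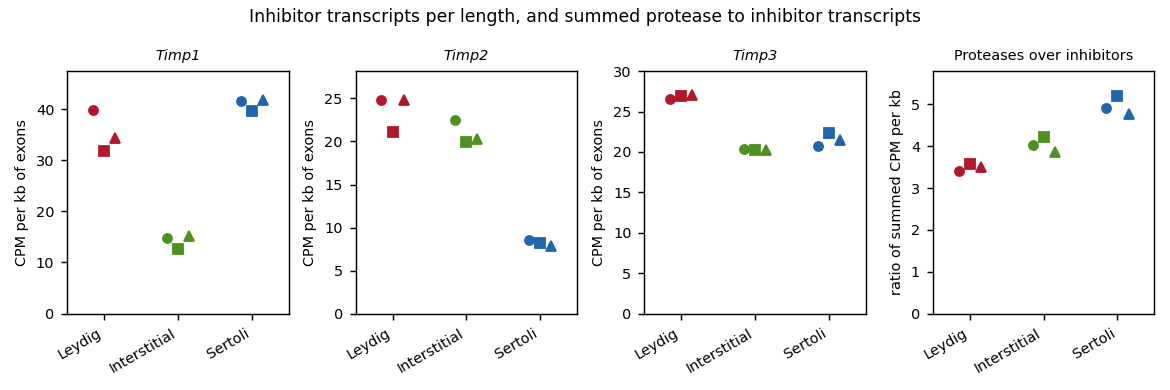
CPM per kb of merged exons (vertical) of Timp1, Timp2 and Timp3, and the ratio of summed protease to summed Timp levels per kb (right panel), in the 9 libraries (circle A, square B, triangle C). Timp1 is lowest in Interstitial and Timp2 in Sertoli, and the ratio lies between 3.4 and 3.58 in Leydig and between 4.78 and 5.19 in Sertoli.

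Counted over the 35 tested members, Leydig against Sertoli gave 20 higher in Leydig and 6 lower, that is 26 calls. Of all genes tested, 16.9% were called higher and 20.6% lower, 37.5% in either direction. The higher ones were 7 of 13 Mmp, 11 of 19 Adamts and 2 of 3 Timp genes, and the lower ones 2, 4 and 0. The median log2 difference of the members was 0.56, with a range of -1.83 to 3.12, and that of all genes was -0.01. At least 2-fold differences were called for 10 higher and 4 lower members (7.18 and 6.54% of all genes). Members whose 3 Leydig libraries all lay above the 3 Sertoli libraries numbered 22, and 7 lay below (30.3 and 27.9% of all genes). Scaled by library size alone, the members again gave 20 and 6, while all genes gave 4007 higher and 2805 lower, against 3053 and 3709.

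Leydig against Interstitial gave 15 members higher in Leydig and 4 lower (22.0 and 23.2% of all genes, 45.1% in either direction). The 4 lower were Mmp8, Adamts3, Adamts6 and Adamts18. The higher ones were 5 Mmp, 8 Adamts and 2 Timp genes. The count of lower members fell in the fits without Leydig replicate A and without either Interstitial replicate, which leave a single library in that population. The median was 0.14, with a range of -1.73 to 2.78, against 0.01 for all genes. At least 2-fold differences were called for 7 higher and 1 lower (5.7 and 9.56% of all genes). All 3 Leydig libraries lay above the Interstitial ones for 18 members and below for 6 (31.4 and 33.9% of all genes). Scaled by library size alone, 13 members were higher and 5 lower, and 3245 and 4833 of all genes, against 3966 and 4180.

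Interstitial against Sertoli gave 18 members higher in Interstitial and 11 lower (32.7 and 29.1% of all genes, 61.8% in either direction), and without Interstitial replicate B 7 lower. By family, 6 Mmp, 11 Adamts and 1 Timp gene were higher, and 4, 6 and 1 were lower. The median there was 0.28, with a range of -4.61 to 4.75, against 0.04 for all genes. At least 2-fold differences were called for 10 higher and 7 lower (16.0 and 11.9% of all genes). The libraries did not overlap for 20 higher and 13 lower members (42.9 and 32.0% of all genes). Scaled by library size alone, 18 members were higher and 7 lower, and 7530 and 4014 of all genes, against 5901 and 5254. The 3 comparisons share their libraries, so their counts are not independent.

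**Figure D4:**
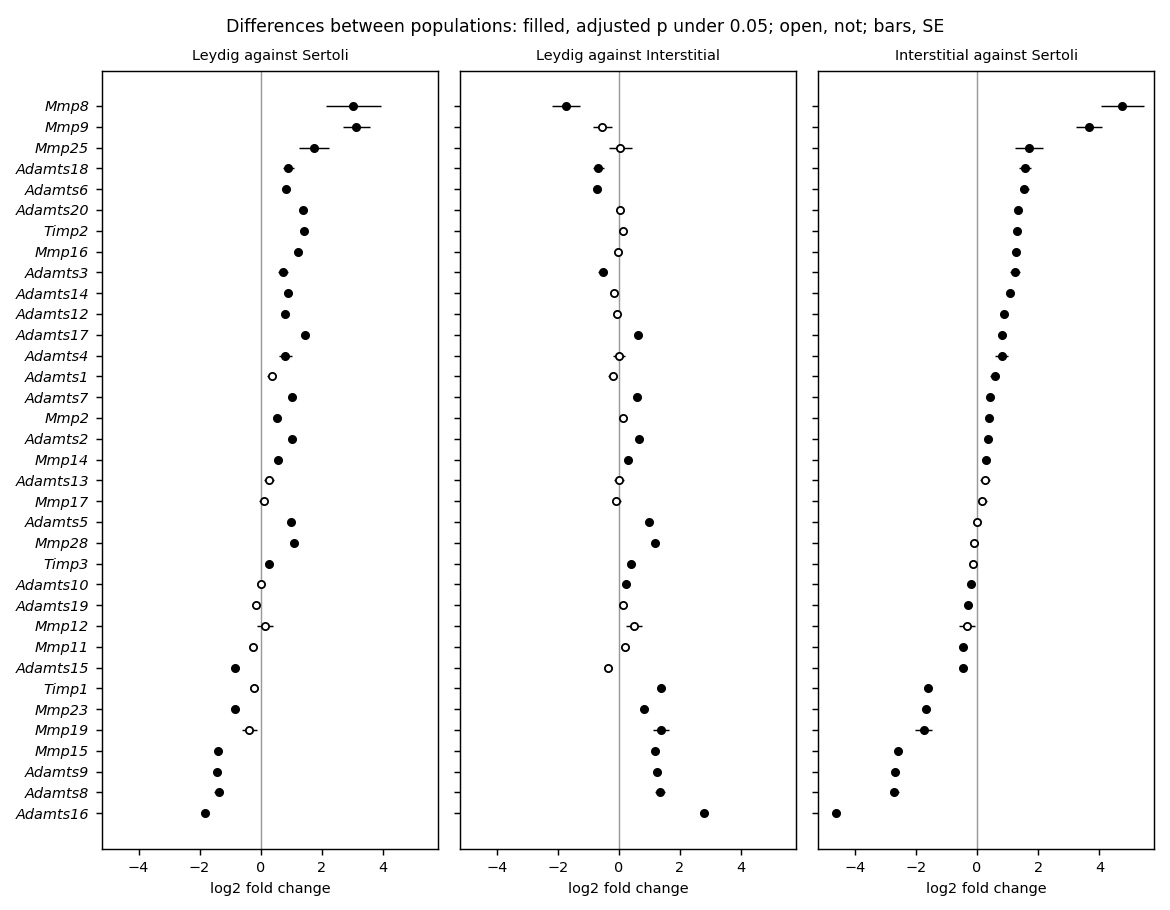
Log2 fold change (horizontal) with its SE for the 35 tested members (rows) in the 3 comparisons (panels); filled points were called at an adjusted p under 0.05, open ones were not. The members at the bottom, Adamts16, Adamts8, Adamts9 and Mmp15, lie below 0 against Sertoli in both other populations and above 0 for Leydig against Interstitial.

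In the authors' deposited tables of limma results, which list genes at an adjusted p under 0.05 and at least 2-fold, 15 members appear for Leydig against Sertoli, 8 for Leydig against Interstitial and 16 for Interstitial against Sertoli. Of these, 12, 7 and 15 were also called at least 2-fold here. The log2 values in the authors' deposited tables differed from those above by at most 0.14, 0.1 and 0.32 for the listed members. Adamts5 at 1.08 and 1.01, Adamts14 at 1.02, Adamts18 at 1.04 and Adamts12 at 1.01 are listed in the authors' deposited tables and fell short of 2-fold here, while Mmp8 and Mmp25 passed here and are not listed.

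Companion genes of the pathway, 70 in the table and 67 tested, did not share 1 direction. Against Sertoli, 21 were higher in Leydig and 24 lower (16.9 and 20.6% of all genes), and 26 were higher in Interstitial and 27 lower (32.7 and 29.1% of all genes). Against Interstitial, 29 were higher in Leydig and 16 lower (22.0 and 23.2% of all genes). The counts of each sublist below stand against the same shares. Values below are means of replicates A and B, and each gene named besides Plg was called in at least 1 comparison. Of 7 tested activators, 2 were higher and 4 lower in Leydig than in Sertoli, 3 higher and 2 lower than in Interstitial, and 3 higher and 4 lower in Interstitial than in Sertoli. The convertase gene Pcsk6 was at 135 CPM in Leydig, 41.5 in Interstitial and 255 in Sertoli, in the order of Adamts16. Its relatives Pcsk5 and Furin were at 238 CPM in Leydig, 121 in Interstitial and 232 in Sertoli, and at 46.6 CPM in Leydig, 45.3 in Interstitial and 63.6 in Sertoli. The urokinase gene Plau, in the order of Adamts17, was at 33.9 CPM in Leydig, 18.4 in Interstitial and 10.6 in Sertoli. The surface protease gene St14 was at 2.02 CPM in Leydig, 7.52 in Interstitial and 3.63 in Sertoli. Plasminogen itself (Plg) had 0 reads in all libraries.

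Of 12 genes listed as inhibitors outside the Timp family, 2 were higher and 6 lower in Leydig than in Sertoli. Against Interstitial, 3 were higher and 1 lower in Leydig. In Interstitial, 4 were higher and 6 lower than in Sertoli. Reck, a membrane-bound inhibitor of Mmp2, Mmp9 and Mmp14, was at 47.9 CPM in Leydig, 40.8 in Interstitial and 21.2 in Sertoli, in the order of Timp2. Serpine2, which inhibits serine proteases such as urokinase, was at 119.7 CPM in Leydig, 27.2 in Interstitial and 368 in Sertoli. Spock2, a matrix proteoglycan gene on that list, was at 23.2 CPM in Leydig, 11.4 in Interstitial and 55.0 in Sertoli. Its action as an inhibitor was not tested. Of 10 Adam genes, which encode membrane relatives, 4 were higher and 4 lower in Leydig than in Sertoli, 5 and 1 against Interstitial, and 4 and 5 in Interstitial against Sertoli. Adam19 was at 133 CPM in Leydig, 126 in Interstitial and 47.5 in Sertoli, and the sheddase gene Adam10 at 149 CPM in Leydig, 80.0 in Interstitial and 229 in Sertoli. Adam12 was at 62.5 CPM in Leydig, 26.0 in Interstitial and 59.4 in Sertoli. Adam9, Adam15 and Adam22 averaged 47.8, 9.95 and 10.2 CPM in Leydig, 32.9, 11.0 and 22.9 in Interstitial, and 66.6, 3.82 and 4.12 in Sertoli.

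Adamts-like genes encode relatives without a protease domain. Of 6, 2 were higher and 2 lower in Leydig than in Sertoli, 1 and 3 against Interstitial, and 2 and 1 in Interstitial against Sertoli. Adamtsl3 was at 7.95 CPM in Leydig, 1.63 in Interstitial and 17.0 in Sertoli, and Adamtsl1 in the reverse order at 6.79 CPM in Leydig, 11.1 in Interstitial and 1.27 in Sertoli. Thsd4 was at 37.2 CPM in Leydig, 54.6 in Interstitial and 51.2 in Sertoli. The 6 tested astacin proteases and their enhancers counted 2 and 1, 2 and 3, and 4 and 1 in the same comparisons. They included the procollagen carboxy-propeptidase gene Bmp1 at 130.1 CPM in Leydig, 111 in Interstitial and 105 in Sertoli, and its enhancer gene Pcolce at 142 CPM in Leydig, 59.8 in Interstitial and 188 in Sertoli. The 9 other secreted proteases counted 3 and 4, 5 and 3, and 3 and 4. Prss35 was at 142 CPM in Leydig, 31.7 in Interstitial and 250.5 in Sertoli, Htra1 at 21.4 CPM in Leydig, 11.5 in Interstitial and 39.5 in Sertoli, and Htra3 at 25.5 CPM in Leydig, 10.8 in Interstitial and 13.9 in Sertoli. Prss23, Dpp4 and Fap, the last a fibroblast protease gene, were highest in Interstitial. They were at 3.83, 4.17 and 0.813 CPM in Leydig, 19.1, 24.2 and 5.47 in Interstitial, and 2.22, 3.22 and 0.199 in Sertoli.

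Of 10 tested Adamts substrates and their partners, 3 were higher and 1 lower in Leydig than in Sertoli, 6 and 1 against Interstitial, and 3 and 4 in Interstitial against Sertoli. Versican (Vcan), a main substrate of Adamts9, Adamts5 and Adamts1, was chosen after its values were seen and was at 431 CPM in Leydig, 338 in Interstitial and 399 in Sertoli. Aggrecan (Acan) was at 17.0 CPM in Leydig, 3.23 in Interstitial and 21.3 in Sertoli, and the link protein gene Hapln1 at 29.7 CPM in Leydig, 17.1 in Interstitial and 10.4 in Sertoli. Hapln3, Cspg4 and Reln were at 15.0, 80.9 and 4.38 CPM in Leydig, 11.6, 48.2 and 10.1 in Interstitial, and 6.81, 84.3 and 6.52 in Sertoli. The 7 surface partners and clearance receptors counted 3 and 2, 4 and 2, and 3 and 2. The endocytic receptor gene Lrp1, through which several Mmp and Timp proteins are cleared, was at 677 CPM in Leydig, 543 in Interstitial and 368 in Sertoli. Its relative Lrp2, a gene of absorptive epithelium such as kidney tubules, was at 12.9 CPM in Leydig, 58.3 in Interstitial and 2.24 in Sertoli. Bsg, an inducer of Mmp expression, and the integrin genes Itgav and Itgb3 were at 253, 183 and 12.4 CPM in Leydig, 214, 122 and 35.8 in Interstitial, and 364, 256 and 7.80 in Sertoli.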

How the data were processed

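The authors deposited raw counts for each gene, library and lane. Reads were aligned with TopHat2 2.0.6 to mm10 and counted with HTSeq, per the submitters' processing notes. No source used here gives the annotation release or the strand setting; the kit was stranded, per the labels' protocols. The authors also deposited limma tables, with log2 fold changes, log2 average expression, t and log odds scores, p-values and adjusted p-values, per the file headers. The 4 lanes of each library were summed, and the 5 HTSeq summary lines were left out (32.23 to 38.52% of reads lay outside genes). Symbols, coordinates and merged exon lengths came from GENCODE M21 (GRCm38, also called mm10), which named 36638 of 38560 identifiers. Replicates A and B (6 libraries over the 3 populations, 3 residual degrees of freedom) were fitted with edgeR 4.0.16 (glmQLFit, glmQLFTest, TMM, filterByExpr) in R 4.3.3, and p-values were adjusted by Benjamini-Hochberg over 18048 genes within each comparison. Adjusted p are those of edgeR's quasi-likelihood test, and an SE is the size of the log2 change divided by the square root of F. P-values measure the spread between pools, not animals. CPM values use TMM factors over all 9 libraries and all reads in genes. Floors cover counting error only, since PCR copies are not independent molecules. Where exons overlap on opposite strands, the strand setting decides whether reads are shared. Members described in full are the 4 Timp genes, Mmp2, Mmp9, Mmp14 and every Mmp or Adamts gene called with at least a 2-fold difference and 5 CPM in its highest population; other members and Vcan are given besides. Companion genes named are the 2 with the largest called change in each direction at 5 CPM or more. The members, lists, motifs and sequences were chosen with earlier results of these data known. The scripts were checked on simulated counts. Alternatives were RLE or no scaling, other filters, DESeq2 1.42.0, limma 3.58.1 voom, all 9 libraries, a replicate block, the first or last 2 lanes, only the populations compared, and each library left out.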

Additional observations from a re-analysis of the deposited data

How the results depend on the processing

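Of 74 calls of single members, 53 held under every alternative that tested them (14 to 17 each), 21 were lost under at least 1, and none reversed. Of 31 differences not called, 12 were called under at least 1. With DESeq2 and with the first 2 lanes, 2 members were lower in Leydig than in Interstitial; leaving out 1 library each gave 1 to 4, against 4 with all. Members lower in Interstitial than in Sertoli numbered 7 when scaled by library size alone, and 7 to 11 over the fits that left out 1 library, against 11. That scaling moved the median of all genes by up to 0.168 on the log2 scale, and the calls of Adamts10 and Adamts19 in Interstitial against Sertoli were lost under it. The cause was not tested for the other settings. Calls were also lost for Mmp25 against Sertoli in both populations with DESeq2 (DESeq2 adjusted p 0.108 in Leydig and 0.0848 in Interstitial) and for Mmp8 and Adamts3 between Leydig and Interstitial (DESeq2 adjusted p 0.085 and 0.0544). The last 2 lanes lost Mmp8 (1.51, edgeR adjusted p 0.337) and Adamts4 (0.57, edgeR adjusted p 0.147) in Leydig against Sertoli, and library size alone lost Mmp14 in Leydig against Interstitial (0.22, edgeR adjusted p 0.0611) and Mmp11 and Adamts15 in Interstitial against Sertoli (edgeR adjusted p 0.0559 and 0.0702). The remaining 4 counts stayed within 1.5 times. No source used here says that the replicate letters pair samples across populations. Differences of A minus B correlated across 18081 genes for every pair of populations, at 0.134 to 0.337, a hint of pairing from the data and not from the design. With the replicate block, 21 and 8 members were called higher and lower in Leydig than in Sertoli, 16 and 5 against Interstitial, and 18 and 12 in Interstitial against Sertoli. With it, Timp1, Adamts1 and Mmp11 in Leydig against Sertoli (edgeR adjusted p 0.0453, 0.00926 and 0.0066), Adamts15 and Mmp11 in Leydig against Interstitial (0.0382 and 0.0127) and Timp3 in Interstitial against Sertoli (0.0354) were called. Depth limits Mmp8, Mmp25 and the 9 members not tested.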
